A study of Homo sapiens with 30 samples.

Results

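The guanylate-binding proteins GBP1, GBP2, GBP3, GBP4, GBP5, GBP6 and GBP7 were taken by gene symbol from the TPM tables of U87 and U251. All 7 symbols had a row in both tables, out of 61471 rows in each. U87 (U87-MG) and U251 (U251-MG) are established human glioblastoma lines, labelled wild type, that the study obtained from a cell bank, did not authenticate by STR profiling and describes as listed among commonly misidentified lines. Of the 30 RNA libraries sequenced, 15 came from each line, in 5 groups of 3. Untreated cells received no IFN-γ. D3, D14 and D28 denote 3, 14 and 28 days of exposure to IFN-γ, and D28WO denotes exposure for 14 days followed by a washout of another 14 days. The protocol text of the labels states 1 µg/mL of human IFN-γ, another label field gives this dose in µL/mL, and the methods of the study state a lower dose. The Untreated libraries are labelled as collected at day 3, whereas the design text lists a day 0 sample. According to the methods, replicates were separate cultures of the same line. Each line stands for 1 tumor-derived culture, without the leukocytes, vessels or normal brain cells of a tumor.

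Guanylate-binding proteins are large GTPases of the dynamin superfamily and belong to the most strongly inducible products of interferon signaling. IFN-γ binds its receptor and activates the kinases JAK1 and JAK2, which leads to transcription from promoters with GAS elements, and the transcription factor IRF1, itself induced by IFN-γ, binds ISRE elements. The proteins assemble on intracellular bacteria and pathogen vacuoles and help to open the inflammasome pathway, in which caspases cut gasdermin D. Some members carry a lipid anchor at their C terminus. In glioblastoma, GBP1 is known as a gene that signaling by the EGF receptor can also raise.

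The 7 genes form 1 cluster on chromosome 1 (GRCh38, GENCODE), chr1:89006679-89388160, with a length of 381 kb. From low to high coordinates the order was GBP3, GBP1, GBP2, GBP7, GBP4, GBP5 and GBP6, and only GBP6 lies on the plus strand. The spans of GBP2 and GBP7 overlap on the same strand over chr1:89131742-89150456, and 24.2% of the 50-base windows of GBP7 transcripts occurred in another member or in the pseudogene GBP1P1, nearly all of them in GBP2. This share was 19.1% for GBP1P1, 8.82% for GBP2, 7.76% for GBP1, 4.41% for GBP3 and 0.308% for GBP4, and no window of GBP5 or GBP6 was shared. At the 150 bases of 1 read, windows were shared only between GBP2 and GBP7, with 6.52% of GBP2 and 19.5% of GBP7. The levels of GBP7 are therefore uncertain, and those of GBP1P1 and GBP2 less so.

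Promoters of 5 of the 7 genes were matched in RefSeq (GRCh38.p14), from 250 bases before the start of the gene to 50 bases from the start on. GBP2 and GBP5 were not among them. The windows were searched on both strands for the GAS motif TTCNNNGAA and for the ISRE core, which is GAAA, then 2 bases of any kind, then GAAA. The motifs are short: of 35116 promoters of the same length, 7.66% held the GAS motif, 3.57% the ISRE core and 0.439% both. The GBP1, GBP3 and GBP4 windows held a match and are shown 5′ to 3′ on the minus strand, the strand of these genes. Capitals mark each match as it reads on that strand, and every ISRE core match was on the opposite strand.
GBP1, chr1:89065159-89065458: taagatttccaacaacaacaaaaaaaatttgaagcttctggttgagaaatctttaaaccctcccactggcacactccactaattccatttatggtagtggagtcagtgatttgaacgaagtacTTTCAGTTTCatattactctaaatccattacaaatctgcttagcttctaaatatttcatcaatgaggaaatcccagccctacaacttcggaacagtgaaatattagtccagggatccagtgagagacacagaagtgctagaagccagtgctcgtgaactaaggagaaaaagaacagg
GBP3, chr1:89022817-89023116: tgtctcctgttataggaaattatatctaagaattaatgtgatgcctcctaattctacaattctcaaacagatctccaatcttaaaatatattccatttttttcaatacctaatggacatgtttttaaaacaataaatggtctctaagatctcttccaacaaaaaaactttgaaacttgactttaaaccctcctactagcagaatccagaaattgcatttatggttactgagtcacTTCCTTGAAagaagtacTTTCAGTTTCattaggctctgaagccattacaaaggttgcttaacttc
GBP4, chr1:89198893-89199192: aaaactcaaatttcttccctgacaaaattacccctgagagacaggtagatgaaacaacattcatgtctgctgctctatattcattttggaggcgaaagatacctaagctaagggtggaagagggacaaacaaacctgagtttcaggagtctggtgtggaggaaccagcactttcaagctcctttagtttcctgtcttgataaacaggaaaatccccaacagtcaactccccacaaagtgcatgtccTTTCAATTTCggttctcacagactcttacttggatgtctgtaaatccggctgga
The ISRE core of GBP1 began 127 bases before the RefSeq start, which lies inside the longer gene record of GENCODE. The RefSeq start of GBP3 also lies inside its GENCODE record. GBP3 held a GAS motif that began 15 bases before the RefSeq start, within that record. An ISRE core lay just after the RefSeq start, with the same letters as in GBP1. In GBP4 the ISRE core lay across the start. The windows of GBP6 and GBP7 held neither string of letters, which says nothing of sites outside them. Factor binding was not measured here.

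Values were TPM, so every library summed to the same total and the depth of each library cannot be read from them (the methods of the study state only a minimum number of reads). The values spanned a narrow range for TPM of cultured cells: the highest gene of a library reached 1428 to 5443 TPM, the 100 highest genes held 5.68% to 7.76% of the total, and 2975 to 3188 genes exceeded 100 TPM. How TPM was computed is not given in the sources used here, so levels, ratios and fold changes hold on the scale of these tables, and whether that scale is compressed was not tested. Of the 30 libraries, 28 were used, because 2 columns of the U87 table had the same name and could be given to no sample, which left 2 libraries each at D3 and D14 of U87. Genes above 0 numbered 24223 to 28649 per U87 library and 24450 to 30246 per U251 library. Those of the Untreated U87 libraries (24223 to 25459) lay below every treated U87 library. Within groups, libraries correlated at 0.959 to 0.974 across genes. Of 7 glioma markers, 5 to 7 exceeded a mean of 1 TPM in each group, and their sum reached 1517 to 2171 TPM in U87 and 1489 to 3775 TPM in U251. OLIG2 was listed at 0 in Untreated U251. In U251 the sum was 3703 to 3775 TPM in Untreated and 1489 to 1825 TPM at D3, where GBP levels were high. Of the defining leukocyte markers, TYROBP was listed at 0 in all 28 libraries, AIF1 reached at most 0.892 TPM and PTPRC at most 1.47 TPM. The sum of 8 leukocyte and microglia markers was 20.4 to 66.1 TPM in U87, most of it CSF1R. At D28WO of U87, where GBP levels were high, it was 20.4 to 33.8 TPM, with CSF1R called lower than in Untreated (16.9 against 55.2 TPM). The summed glioma markers were 1517 to 1666 TPM in these libraries and 1945 to 2171 TPM in Untreated U87, and 2 of the 6 tested, GFAP and OLIG2, were called higher (12.8% of all genes) with a list median of -0.23. In U251 the leukocyte and microglia sum was 3.82 to 5.49 TPM in Untreated, 12.4 to 16.4 TPM at D3 and 8.03 to 8.73 TPM at D14. It was 10.3 to 16.8 TPM at D28 and 5.12 to 10.6 TPM at D28WO. In U251, CD14 averaged 0.569 TPM in Untreated and 4.51 TPM at D3, and FCER1G 0.83 and 6.01 TPM, and these 2 of the 4 markers tested were called higher at D3 (9.72% of all genes) and at D28 (11.9%). The part of these markers in the results of either line was not tested. Of the 5 endothelial markers, 1 to 3 exceeded a mean of 1 TPM in any group, and CDH5 made up most of their sum of 27.0 to 38.6 TPM in Untreated U251. That sum was lower in every other group, with 3.05 to 3.98 TPM at D3, 10.3 to 21.7 TPM at D14, 4.6 to 5.87 TPM at D28 and 4.63 to 8.93 TPM at D28WO. It was thus lower at D14 too, where GBP levels lay below those of D3. CDH5 was called lower at D3 and at D28. The shares of all genes called lower were not computed for these marker comparisons with Untreated. The part of the endothelial markers in the results was not tested either. In bulk RNA, a smaller share of responding cells and less RNA per cell cannot be told apart.

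In both lines the libraries of 2 groups held GBP RNA at levels that did not follow their labelled treatment. Libraries labelled D14 came from cells under IFN-γ, yet in U87 they held GBP RNA near the Untreated level and in U251 between Untreated and D3. Libraries labelled D28WO came from cells without IFN-γ for 14 days, yet they held GBP RNA near the level of D28. No value in the tables gives the treatment independently of this response, measurements of the study by other assays were not used here, and the cause was not tested. Each comparison of D3 and D28 with Untreated was therefore also fitted without them. The 5 tested genes of U87 and 7 of U251 were higher in both comparisons either way. With all libraries, 5.85% of all genes at D3 and 6.77% at D28 were called higher in U87, and 9.72% and 11.9% in U251. These shares were not computed without the 2 groups. GBP6 and GBP7 of U251 passed the filter of a mean of 0.5 TPM only through treated groups and so had to differ.

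The summed level of the 7 genes showed this course. It was 89.8 ± 13 TPM (mean ± SD) in Untreated U87, 549.8 ± 44.5 TPM at D3, 95.5 ± 1.5 TPM at D14, 636 ± 43 TPM at D28 and 612 ± 8.66 TPM at D28WO. In U251 the corresponding values were 249 ± 16.7, 1582 ± 245, 476 ± 14.1, 1623 ± 11.6 and 1792 ± 75.7 TPM. Both lines therefore went up, down and up again along the labelled groups, and the ranges of the libraries of D3, D28 and D28WO did not overlap those of Untreated or D14. U251 was higher than U87 in each group, but its table was normalized separately and the lines were not compared by a test.

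**Figure D1:**
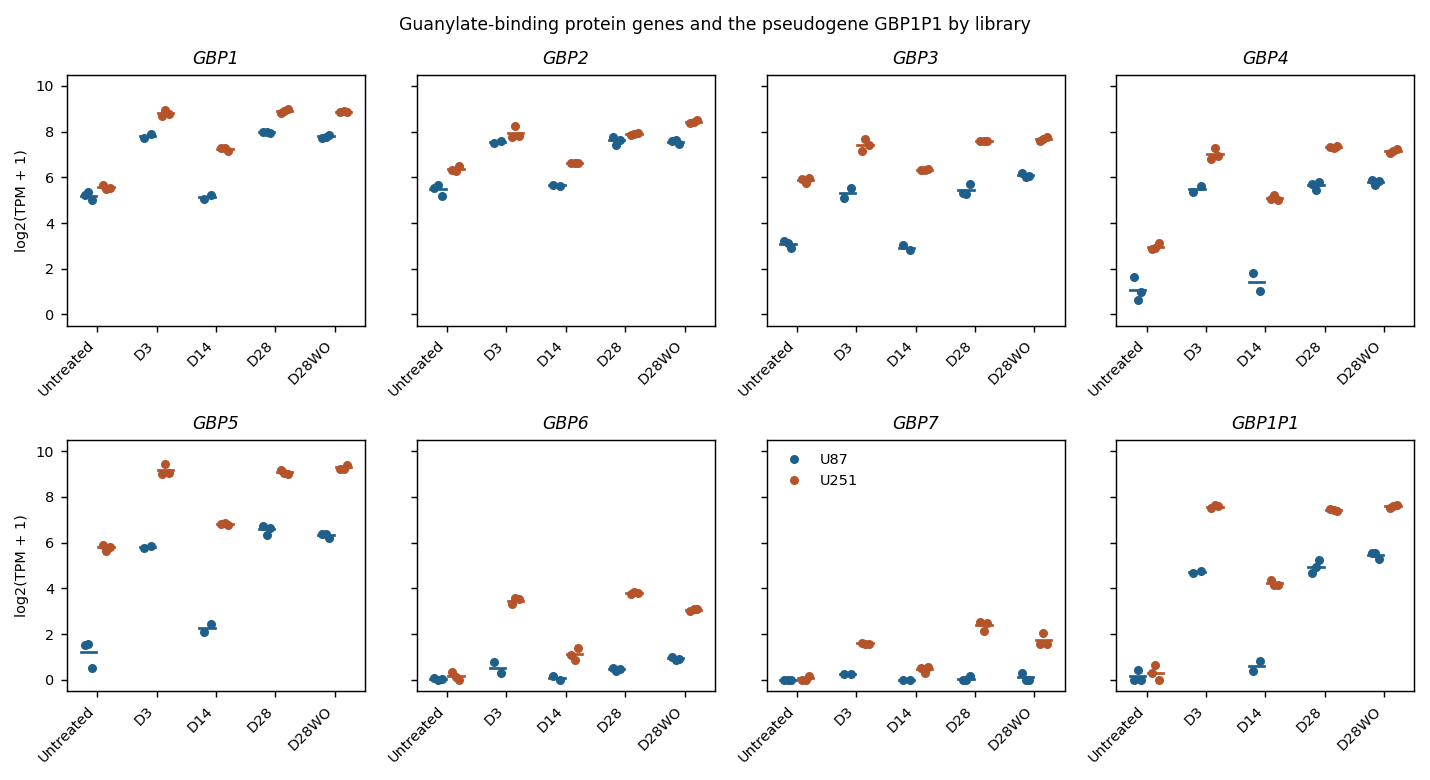
Level of each guanylate-binding protein gene and of the pseudogene GBP1P1 as log2(TPM + 1), with 1 point per library, a bar at the mean of the group, U87 in blue and U251 in orange. In U87 the D14 libraries lie at or near the Untreated ones, and in both lines the D28WO libraries lie close to D28.

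The make-up of this RNA changed with its amount. In Untreated U87, GBP2 made up 48.6% and GBP1 40.2% of the summed TPM, while GBP5 made up 1.51%. At D28 of U87, GBP2 made up 30.8%, GBP1 39.7% and GBP5 14.9%. In Untreated U251, GBP2 made up 33%, GBP3 23.6%, GBP5 21.9% and GBP1 18.7%. The first place passed from GBP2 to GBP5 in U251, which made up 36.5% at D3, 33.3% at D28 and 35% at D28WO, with GBP1 second. At D14 of U87, GBP2 made up 51.4% and GBP1 35.7%, while GBP5 made up 4.04%, above its share in every Untreated library. At D14 of U251, GBP1 made up the highest share, 31.6%, followed by GBP5 with 23.7%. Measured against all rows of the table, GBP5 rose from rank 6128 in Untreated U251 to rank 31 at D3, and GBP1 from rank 6979 to rank 79. In U87 the highest rank that a member reached was 399, that of GBP1 at D28, against 7473 in Untreated.

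**Figure D2:**
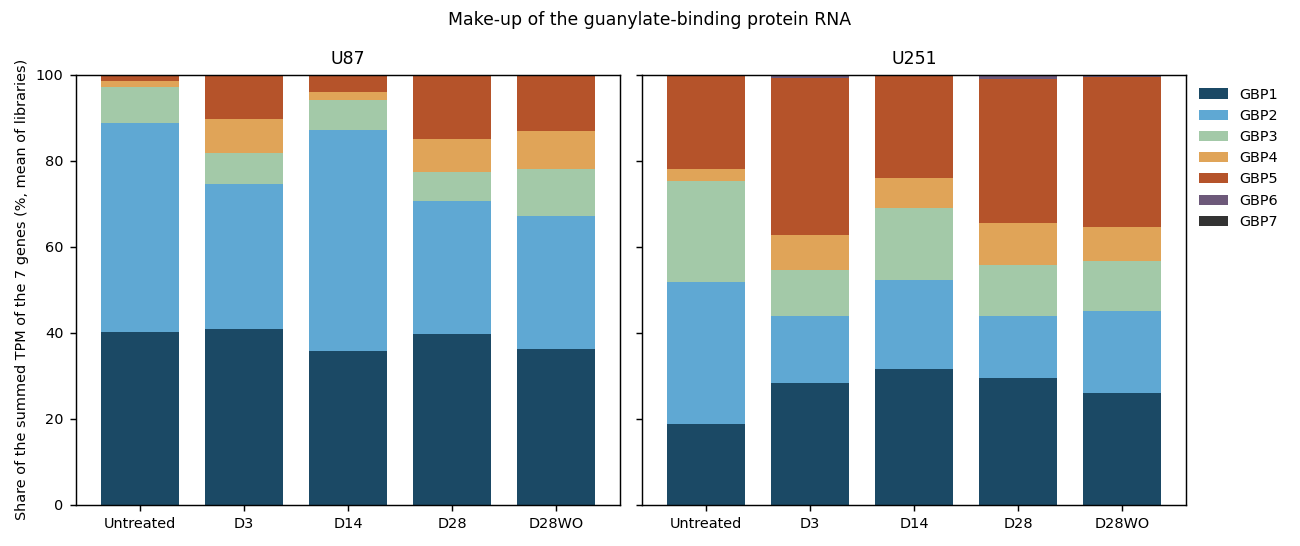
Share of each gene in the summed TPM of the 7 genes (percent, mean of the libraries of a group), in U87 on the left and U251 on the right. GBP2 holds 48.6% in Untreated U87 and 33.0% in Untreated U251, and GBP5 holds the largest share in U251 at D3, D28 and D28WO.

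GBP1 carries a farnesyl anchor and starts the coat on bacterial surfaces by binding lipopolysaccharide. In U87 cells its level was 36.9, 39.6 and 31.3 TPM in Untreated, 209 and 240.2 TPM at D3, 31.7 and 36.6 TPM at D14, 253, 256 and 244 TPM at D28 and 213, 219 and 232 TPM at D28WO. Every library of D3, D28 and D28WO lay above every library of Untreated and D14, which overlapped each other. The means at D3 and D28 were 6.25 and 6.99 times the Untreated mean, and the log2 fold changes of TPM + 1 were 2.61 ± 0.10 (± SE) and 2.78 ± 0.092 (limma, Benjamini-Hochberg adjusted p = 5.39e-08 and 7.41e-09). In U251 cells the values were 49.9, 44.4 and 45 TPM in Untreated, 413, 487 and 434 TPM at D3, 155, 156 and 141 TPM at D14, 456, 473 and 501 TPM at D28 and 461, 471 and 460.1 TPM at D28WO. Here the D14 libraries sat between Untreated and the other groups without overlap. The mean rose to 9.58 times the Untreated mean at D3, 3.24 times at D14 and 10.3 times at D28 (limma, adjusted p = 6.37e-13, 1.09e-09 and 3.47e-13).

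GBP2, which joins the coat that GBP1 starts and carries a geranylgeranyl anchor, had the highest level of the family in the Untreated cells of both lines. In U87 it measured 45.3, 49.9 and 35.9 TPM in Untreated, 181 and 189 TPM at D3, 49.8 and 48.3 TPM at D14, 219, 171 and 199.6 TPM at D28 and 193, 199.6 and 174 TPM at D28WO. In U251 it measured 79.5, 76.2 and 90.6 TPM in Untreated, 215, 302 and 223 TPM at D3, 97.7, 97.4 and 97.3 TPM at D14, 227, 240.3 and 243 TPM at D28 and 328, 339.6 and 364 TPM at D28WO. D28WO was the highest group of U251, above D28 in every library, as for 16.1% of all genes tested. With log2 fold changes of 2.15 ± 0.12 in U87 and 1.52 ± 0.10 in U251 at D28, GBP2 had the smallest rise of the genes tested in each line (limma, adjusted p = 3.21e-07 and 6.03e-08). A part of these reads may belong to the overlapping GBP7, whose own level was far lower.

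GBP3 is a close relative of GBP1 that also takes part in the coat. Its Untreated level was 8.29, 7.69 and 6.4 TPM in U87 and 60.0, 53.7 and 62.4 TPM in U251. U87 libraries held 33.3 and 45.2 TPM at D3, 7.11 and 6.16 TPM at D14, 39.4, 37.4 and 51.8 TPM at D28 and 71.6, 63.6 and 66 TPM at D28WO. The D28WO libraries were thus the highest of the line and lay all above D28, as for 20.4% of all genes tested. U251 libraries held 139.6, 205 and 168 TPM at D3, 79.4, 79.2 and 80.9 TPM at D14, 192, 192 and 192 TPM at D28 and 194, 204 and 219 TPM at D28WO. The libraries of the 3 highest groups of U251 overlapped in part. At D28 the log2 fold change over Untreated was 2.37 ± 0.16 in U87 and 1.70 ± 0.10 in U251 (limma, adjusted p = 1.27e-06 and 2.13e-08).

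GBP4, which helps to recruit and activate caspase-4 on the coat, started from low levels. In U87 it was 2.15, 0.531 and 0.972 TPM in Untreated, 40.1 and 48.6 TPM at D3, 2.49 and 1.03 TPM at D14, 51.6, 42.1 and 54.7 TPM at D28 and 58, 49.2 and 56.5 TPM at D28WO. In U251 it was 6.31, 6.5 and 7.79 TPM in Untreated, 109.7, 154 and 122 TPM at D3, 32.7, 37 and 31.1 TPM at D14, 161, 154 and 163 TPM at D28 and 133, 144 and 150.2 TPM at D28WO. The Untreated and D14 libraries of U87 overlapped, whereas those of U251 did not. The D28 mean was 40.6 times the Untreated mean in U87 and 23.2 times in U251, with log2 fold changes of 4.57 ± 0.26 and 4.35 ± 0.11 (limma, adjusted p = 4.40e-07 and 2.75e-12).

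GBP5, a Golgi-associated member with a geranylgeranyl anchor that restrains the protease furin, stood at very unlike levels in the untreated lines. Untreated libraries held 1.85, 1.97 and 0.441 TPM in U87 and 59.1, 48.9 and 55.5 TPM in U251. The treated U87 libraries held 53.9 and 57.7 TPM at D3, 3.27 and 4.46 TPM at D14, 107, 80.3 and 99.2 TPM at D28 and 82.3, 81.8 and 72.6 TPM at D28WO. Every D28 library lay above every D3 library, a pair of groups that was not compared by a test. The share of all genes separated in this way was not computed, so no further rise is read from it. The treated U251 libraries held 511, 700.5 and 526 TPM at D3, 113, 117 and 108 TPM at D14, 573, 534 and 517 TPM at D28 and 604, 602 and 674 TPM at D28WO. The D28 mean was 67.1 times the Untreated mean in U87, the largest ratio of the genes tested there, and 9.93 times in U251, with log2 fold changes of 5.38 ± 0.24 and 3.29 ± 0.10 (limma, adjusted p = 5.58e-08 and 2.18e-11). GBP5 was also the only tested gene of the family above the threshold at D14 of U87, with a log2 fold change of 1.07 ± 0.27 (limma, adjusted p = 0.0439). This call was lost under most alternatives: with a pseudocount of 0.1, no filter, quantile normalization, size factors, the 2 compared groups alone, array weights and the replicate block (adjusted p = 0.0523, limma). It was also lost without Untreated replicate 3, D14 replicate 2 or D14 replicate 3, with log2 fold changes of 0.73, 1.25 and 0.89.

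GBP6 and GBP7 were the lowest members. In U87, GBP6 was 0.0631, 0 and 0.0325 TPM in Untreated, 0.694 and 0.216 TPM at D3, 0.114 and 0 TPM at D14, 0.448, 0.294 and 0.392 TPM at D28 and 1.01, 0.841 and 0.902 TPM at D28WO. GBP7 was listed at 0 in every Untreated and D14 library of U87 and reached at most 0.234 TPM in any other. Neither gene reached a mean of 0.5 TPM over the U87 libraries, so neither was tested there. In U251, GBP6 was 0.264, 0.0863 and 0 TPM in Untreated, 8.97, 10.8 and 10.4 TPM at D3, 1.15, 0.799 and 1.63 TPM at D14, 12.4, 13.2 and 12.8 TPM at D28 and 7.09, 7.57 and 7.6 TPM at D28WO. GBP7 of U251 was 0, 0 and 0.127 TPM in Untreated, 2.04, 2 and 2 TPM at D3, 0.414, 0.228 and 0.478 TPM at D14, 4.79, 3.35 and 4.6 TPM at D28 and 1.94, 3.15 and 1.94 TPM at D28WO. Both passed the filter in U251 only through their treated groups and so had to differ from Untreated. No ratio to the Untreated mean is given for GBP6 and GBP7, since some Untreated libraries were listed at 0, and their log2 fold changes depend on the pseudocount. At D28 of U251 that of GBP6 was 3.64 with a pseudocount of 1 and 6.09 with 0.1.

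The pseudogene row GBP1P1, a copy related to GBP1 on the plus strand beyond GBP6, was high in the same groups as the family. Its symbol belongs to 2 GENCODE records, and which of them the row counts is not given in the sources used here. In U87 it was 0, 0.365 and 0 TPM in Untreated, 24.6 and 26.4 TPM at D3, 0.311 and 0.776 TPM at D14, 24.7, 29.4 and 36.7 TPM at D28 and 45.3, 45.3 and 37.6 TPM at D28WO. In U251 it was 0.236, 0.553 and 0 TPM in Untreated, 183, 198 and 192 TPM at D3, 19.9, 16.5 and 16.8 TPM at D14, 177, 171 and 166 TPM at D28 and 185, 191 and 198 TPM at D28WO. The row passed the filter of a mean of 0.5 TPM only through the groups where it was high, so its difference from Untreated is given as a description. Untreated GBP1 stood at 35.9 ± 4.19 TPM in U87 and 46.4 ± 3.04 TPM in U251, while GBP1P1 stood at 0.122 ± 0.211 and 0.263 ± 0.278 TPM. How reads shared between the copies were assigned is not given in the sources used here.

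Passing the threshold required an absolute log2 fold change over 1 and, in limma, a Benjamini-Hochberg adjusted p under 0.05. Against Untreated in U87, 5 of the 5 genes tested were higher at D3 (5.85% of all genes were called higher), 1 of 5 at D14 (1.89%), namely GBP5, a call lost under most alternatives, 5 of 5 at D28 (6.77%) and 5 of 5 at D28WO (12.8%). In U251, 7 of 7 were higher at D3 (9.72%), 3 of 7 at D14 (4.72%), 7 of 7 at D28 (11.9%) and 7 of 7 at D28WO (4.07%). Without GBP6 and GBP7 these counts were 5 of 5 at D3, D28 and D28WO. The 3 genes at D14 of U251 were GBP1, GBP4 and GBP5, with log2 fold changes of 1.68 ± 0.068, 2.14 ± 0.11 and 1.04 ± 0.10. GBP5 stood close to the limit of 1 and fell under it after quantile normalization (0.98), with size factors (0.95) and without Untreated replicate 2 (0.96). GBP3 (0.44) and GBP6 (0.96) passed the adjusted p alone there, while GBP2 (0.25) and GBP7 (0.40) did not. The median log2 fold change of all genes tested was itself above 0: it lay between 0.15 and 0.25 in the 4 comparisons of U87 with Untreated and between 0.015 and 0.16 in those of U251. Relative to that shift, the tested members lay 1.96 to 5.19 higher at D28 in U87 and 1.36 to 4.19 higher in U251. All comparisons with Untreated share the same 3 control libraries of a line.

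**Figure D3:**
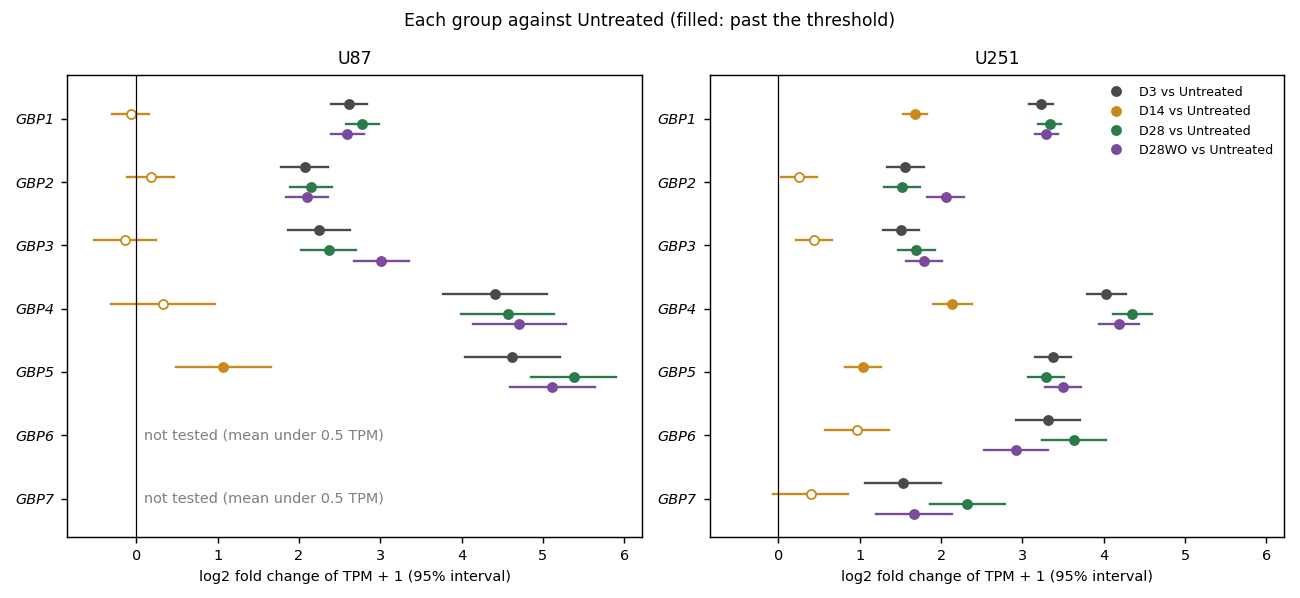
Log2 fold change of TPM + 1 of each gene in D3, D14, D28 and D28WO against Untreated, with the 95% interval from limma, in U87 on the left and U251 on the right. Filled points passed the threshold, and the D14 points lie left of the other 3 groups for every gene drawn.

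Between the groups given IFN-γ, D14 was compared with D3 to follow the early rise. The 5 genes tested in U87 were lower at D14 (2.05% of all genes were called lower), with log2 fold changes from -1.89 for GBP2 to -4.08 for GBP4. The 7 genes of U251 were lower as well (3.29%), from -1.07 for GBP3 to -2.35 for GBP6. GBP3 moved inside the limit of 1, to -0.93, without D3 replicate 2. With only the 4 libraries of D3 and D14 in the fit, the 5 genes of U87 kept these log2 fold changes but none passed, with adjusted p from 0.0749 to 0.0811. GBP7 of U251 averaged 0.373 TPM at D14, under the filter, and was tested only through the groups where it was high, so its differences from D14 are no support. Without it, 6 of 6 genes of U251 were lower at D14 than at D3, and 6 of 6 were higher at D28 and at D28WO than at D14. D28 against D14 asked whether the RNA rose again under continued IFN-γ. Here 5 of 5 genes were higher in U87 (1.78% of all genes) and 7 of 7 in U251 (4.23%). The log2 fold changes ranged from 1.97 to 4.31 in U87 and from 1.26 to 2.67 in U251.

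D28WO against D28 compared withdrawal with continued exposure at the same day. No gene of the family passed the threshold in either direction in U87 (3.11% of all genes were called higher and 2.42% lower) or in U251 (1.12% higher and 8.14% lower). At an unadjusted p under 0.05, 1 gene of U87 and 3 of U251 differed by limma. The share of all genes at that unadjusted limit was not computed. In U87, GBP3 had a log2 fold change of 0.65 ± 0.16 (adjusted p = 0.0141, limma). The 95% intervals of the other U87 genes were -0.38 to 0.018 for GBP1, -0.31 to 0.20 for GBP2, -0.43 to 0.72 for GBP4 and -0.79 to 0.26 for GBP5. In U251, the log2 fold change was 0.53 ± 0.10 for GBP2, -0.72 ± 0.18 for GBP6 and -0.66 ± 0.22 for GBP7 (limma, adjusted p = 0.00163, 0.0095 and 0.0348). The remaining U251 intervals were -0.18 to 0.11 for GBP1, -0.13 to 0.32 for GBP3, -0.40 to 0.082 for GBP4 and -0.014 to 0.43 for GBP5. In U87, the D28WO libraries lay all above the D28 libraries for GBP3 (20.4% of all genes) and all below them for GBP1 (16% of all genes). In U251 they lay all above for GBP2, GBP3 and GBP5 (16.1%) and all below for GBP4, GBP6 and GBP7 (28.3%). A fall to the Untreated level lies outside each of these intervals. Against D14, the labelled start of the withdrawal, D28WO was higher for 5 of 5 genes in U87 (6.3% of all genes) and 7 of 7 in U251 (1.78%). Among these 7, GBP7 was tested only through the groups where it was high and is no support.

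**Figure D4:**
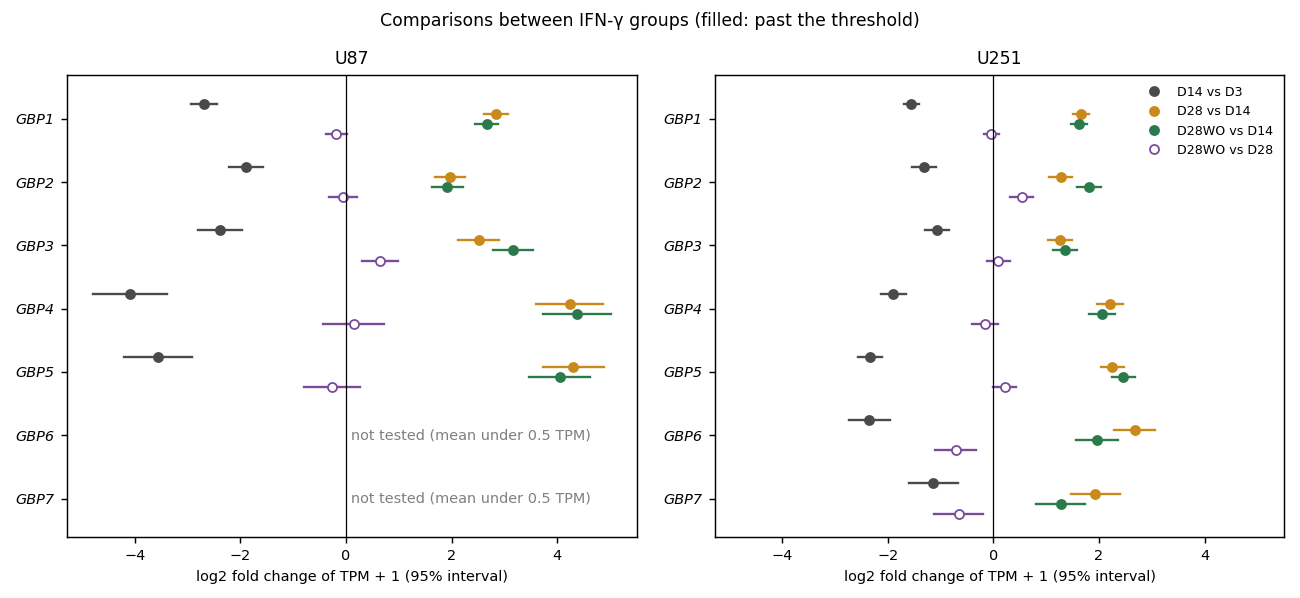
Log2 fold change of TPM + 1 of each gene in D14 against D3, D28 against D14, D28WO against D14 and D28WO against D28, with the 95% interval from limma, in U87 on the left and U251 on the right. Filled points passed the threshold, and the open points of D28WO against D28 lie between -0.72 and 0.65.

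Of 9 genes listed for the control of GBP transcription, 8 were tested in each line, and IRF8, listed at 0 in most libraries, was not. At D28, 4 were higher in each line, namely JAK2, STAT2, IRF1 and IRF9 (6.77% of all genes in U87 and 11.9% in U251), with a median of 0.94 in U87 and 0.95 in U251 over the list. IRF1 measured 133 ± 2.78 TPM in Untreated U87, 448 ± 3.34 TPM at D3, 122 ± 17.1 TPM at D14, 479.7 ± 51.7 TPM at D28 and 509.6 ± 46.5 TPM at D28WO. In U87, 0 of the 8 were called higher at D14 by limma, a count near the share of 1.89% over all genes (4 differed at an unadjusted p under 0.05), and IRF1 and IRF9 were lower at D14 than at D3. In U251, 3 of 8, namely STAT2, IRF1 and IRF9, were higher at D14 than in Untreated (4.72% of all genes). IRF9 of U251 stood at 103 ± 1.53 TPM at D3 and 90.5 ± 1.25 TPM at D14, against 34.8 ± 1.32 TPM in Untreated. IRF1 and JAK2 lay lower at D14 of U251 than at D3, with 300.3 ± 18.4 against 589 ± 114 TPM and 14.4 ± 1.27 against 59.5 ± 4.36 TPM, of which JAK2 passed the threshold. Between D28WO and D28, 0 of the 8 passed by limma in either line, with 4 in U87 and 4 in U251 at an unadjusted p under 0.05. Over all genes, 3.11% were called higher and 2.42% lower in U87, and 1.12% and 8.14% in U251, so a count of 0 does not set the list apart. The shares of all genes at the unadjusted limit were not computed.

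Of the other interferon-inducible and related GTPases, 9 of 10 were tested in U87 and 8 of 10 in U251, and MX1 and MX2, antiviral dynamin-like proteins, were higher at D28 in both lines (6.77% of all genes in U87 and 11.9% in U251). The median of the list at D28 was 0.60 in U87 and 0.43 in U251. MX2 was 11.3 ± 2.56 TPM in Untreated U87 and 71.4 ± 10.4 TPM at D28, and 7.09 ± 1.95 and 124 ± 6 TPM in U251. MX1 of U251 was at D14 close to its level at D3, with 217 ± 21.1 and 230.0 ± 32.9 TPM (log2 fold change -0.079 ± 0.13). The difference between MX1 and the GBP genes was not tested. GVINP1 and IRGM, the next in size, did not pass at D28, with log2 fold changes of 0.92 and -0.18 in U87, and 1.06 for IRGM in U251.

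The caspase and inflammasome partners of the family were called higher at D28 in 4 of 11 tested genes of U87 (6.77% of all genes) and 5 of 10 of U251 (11.9%), and none was called lower. CASP5 in both lines and AIM2 in U251 are among these and passed the filter only through treated groups. The median of the list was 0.71 in U87 and 1.02 in U251. APOL3, which permeabilizes bacteria that GBP1 has coated, went from 13.2 ± 1.34 TPM to 118 ± 10.4 TPM in U87 and from 13 ± 2.7 TPM to 148 ± 3.33 TPM in U251. CASP1, the caspase that matures interleukin-1β, went from 18.4 ± 3.37 to 57.4 ± 6.12 TPM in U87 and from 34.1 ± 2.53 to 92.9 ± 2.04 TPM in U251. AIM2, a sensor of cytosolic DNA, went from 59.2 ± 3.24 to 122 ± 5.31 TPM in U87 and from 0.0989 ± 0.0986 to 29.1 ± 4.44 TPM in U251. Some partners passed the threshold between D28WO and D28. In U251, 3 of 10 were lower at D28WO than at D28 (8.14% of all genes). Among them, AIM2 stood at 2.45 ± 1.01 TPM at D28WO (log2 fold change -3.16 ± 0.32, limma, adjusted p = 8.89e-06). NLRP3, another of them, averaged 1.44 TPM at D28 and at most 0.869 TPM in any other U251 group. NLRP3 passed the filter only through D28, the group where it was high, so its difference from D28 is no support. In U87, 3 of 11 were higher at D28WO (3.11% of all genes), among them CASP5, a sensor caspase for lipopolysaccharide, at 18.8 ± 2.33 against 1.28 ± 0.436 TPM (log2 fold change 3.13 ± 0.25, limma, adjusted p = 5.89e-05). PYCARD, the adaptor of the inflammasome, was measured in U87 but reached no mean above 0.185 ± 0.321 TPM in any U251 group.

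The enzymes that attach and trim the lipid anchor, together with the kinase PIM1, which holds GBP1 in a locked state, showed 0 of 7 genes past the threshold by limma at D28 in both lines, with 1 in U87 and 0 in U251 at an unadjusted p under 0.05. The count of 0 is near the share over all genes, of which 7.38% in U87 and 15.2% in U251 were called in either direction. The share of all genes at the unadjusted limit was not computed. PIM1 had the largest change of the list, 0.73 ± 0.18 in U87 (adjusted p = 0.0125, limma), and passed only at D14 of U87 with 1.00. RCE1, ICMT and PGGT1B, the protease, methyltransferase and transferase subunit of this route, lay at 0.33, 0.0074 and 0.12 in U251.

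The neighbors of the cluster were measured as a local comparison. Of the 8 flanking genes PKN2, GTF2B, KYAT3, RBMXL1, LRRC8B, LRRC8C, LRRC8D and ZNF326, 0 passed the threshold by limma in any of the 8 comparisons in either line, and at an unadjusted p under 0.05 the count at D28 was 2 in U87 and 4 in U251. Beside the same shares over all genes (7.38% and 15.2% at D28), a count of 0 among 8 genes does not set the neighbors apart from other genes. These shares are of calls past the threshold, and the share of all genes at the unadjusted limit was not computed. Their median log2 fold change at D28 was 0.18 in U87 and -0.18 in U251, against medians of 0.19 and 0.16 over all genes. The largest value at D28 was that of PKN2 in U87, 0.74 ± 0.21 (adjusted p = 0.0276, limma), followed by LRRC8C in U251 with -0.44 ± 0.13 (adjusted p = 0.0172, limma). RBMXL1 and ZNF326 lay at 0.38 and 0.10 in U251.

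Within the family, the log2 levels of member pairs correlated at 0.956 to 0.991 over the 13 libraries of U87 and at 0.870 to 0.997 over the 15 libraries of U251, which share the groups. Among all other tested genes of U87, those whose levels ran most like the mean of the family were APOL1 (Pearson r 0.997), BATF2, IDO1, IFIT3 and BTN3A2. IDO1, for example, was at 0.0795 TPM in Untreated, 83.6 TPM at D3, 0 TPM at D14, 110.9 TPM at D28 and 135.7 TPM at D28WO. In U251 the most alike were IL18BP (r 0.995), LGALS17A, RNF19B, TMEM140 and HLA-DMA. IL18BP was at 5.88 TPM in Untreated, 169.5 TPM at D3, 16.7 TPM at D14, 222 TPM at D28 and 173.8 TPM at D28WO. Without the D14 and D28WO libraries the leading genes were SAMD9L in U87 (r 0.999 over 8 libraries) and IFIT1 in U251 (r 0.999 over 9 libraries), and IFIT3 was in both U87 lists. CXCL9 of U251, which entered the list without those groups, was at 187 TPM at D28 and 16.1 TPM at D28WO, so its course parted from that of the GBP genes there. IFIT1 of U251 was at 57.4 TPM at D3 and 60.6 TPM at D14, and TNFSF10 of U87 at 23.2 TPM at D28 and 7.75 TPM at D28WO. Their courses parted from that of the GBP genes as well.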

How the data were processed

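Bulk RNA of U87 and U251 was sequenced as paired-end reads. The authors deposited TPM values, in 1 separately normalized table per line, made with FastQC, Trim Galore, STAR (GRCh38) and featureCounts per the labels; how TPM was computed is not given in the sources used here. The study tested counts with limma-voom after filtering in edgeR, and counts were not used here. Samples were grouped by their titles and labels, and 2 U87 columns with the same name were left out.

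A pseudocount of 1 was added before taking log2. Within a line, genes averaging 0.5 TPM or more (22918 in U87, 23667 in U251) were fitted with limma 3.58.1 in R 4.3.3 (lmFit, contrasts.fit and eBayes with a trend), 5 groups in 1 fit, without covariates. The 8 comparisons per line were two-sided, with Benjamini-Hochberg adjustment over all genes tested of a comparison. No test set one line against the other. The fit was tested on simulated data with known changes. Since TPM holds no depth, a value of 0 has no detection limit here.

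Every member was named whatever its values, with rows of family pseudogenes and, for each list (transcription control, other GTPases, caspase and inflammasome partners, prenylation and lock, flanking genes), counts and at most 4 genes with the largest absolute log2 fold change at D28 of either line. Further partners that passed between D28WO and D28 (PYCARD among them) were named after their values were seen. Lists of glioma, leukocyte and endothelial markers were used as checks. Likeness was the Pearson correlation of a gene with the mean standardized level of the members tested. A gene of the transcription control list is not reported here. Members and lists were chosen with earlier results of these data known.

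Gene positions and transcript windows came from GENCODE 44, and promoters from RefSeq. The number of libraries per group, 2 or 3, limits precision. Alternatives were a pseudocount of 0.1, size factors by median ratios, quantile normalization, no filter, a stricter filter of 1 TPM, fits of the 2 compared groups alone, array weights, a replicate block, the adjusted p as the only criterion, leaving out each library in turn and, chosen after seeing the data, a fit without the D14 and D28WO libraries. Deviations from the group means gave no sign of pairing by replicate number, which does not exclude shared cultures. Figures were drawn with Python 3.11.15 and matplotlib 3.10.9.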

Additional observations from a re-analysis of the deposited data

How the results depend on the processing

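The rises of the tested genes over Untreated at D3, D28 and D28WO kept their direction and their side of the threshold in both lines under each alternative tried. Among the alternatives was the fit without the D14 and D28WO libraries, chosen after seeing the data. It gave 5 genes in U87 and 7 in U251 at D3 and at D28. GBP6 and GBP7, among the 7 of U251, passed the filter only through treated groups and so had to differ from Untreated. Of 1338 values of single genes under an alternative, 1306 kept direction and side, 19 lost the threshold, 4 gained it and 9 turned in sign.

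The single call at D14 of U87, GBP5, was the least stable: the count was 0 with a pseudocount of 0.1, no filter, quantile normalization, size factors, only the 2 compared groups, the replicate block and array weights, and 0 to 1 when single libraries were left out. GBP5 there ranged from 0.73 to 1.60 on the log2 scale. The count of lower genes in D14 against D3 of U87 was 0 with only the 2 compared groups. In U251 at D14 the count of higher genes was 5 with a pseudocount of 0.1 and 5 by the adjusted p alone. With a pseudocount of 0.1, GBP6 reached 2.72 and GBP7 1.81, from Untreated means of 0.117 and 0.0423 TPM. Both passed the filter only through treated groups, and no share over all genes was computed under these settings. GBP5 at D14 of U251 lost the threshold with quantile normalization (0.98), size factors (0.95) and Untreated replicate 2 left out (0.96). GBP6 gained it with Untreated replicate 1 (1.06) or D14 replicate 2 (1.10) left out. By the adjusted p alone, D28WO against D28 gave 1 higher gene in U87, and 1 higher and 2 lower genes in U251. The cause of these changes was not tested.

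The values that turned in sign were all small. At D14 against Untreated of U87 they were GBP2 at -0.00088 (quantile normalization) and -0.0013 (size factors), GBP4 at -0.046 (quantile normalization) and -0.060 (without D14 replicate 2), and GBP1 at 0.0029 (Untreated replicate 2 left out) and 0.033 (D14 replicate 2 left out). With single libraries left out they ranged from -0.17 to 0.033 for GBP1 and from -0.060 to 0.72 for GBP4. At D28WO against D28 they were GBP2 in U87 at 0.027 (without D28 replicate 1) and 0.0029 (without D28WO replicate 3), and GBP1 in U251 at 0.051 (size factors), and GBP2 ranged from -0.15 to 0.027 with single libraries left out. Samples with the same replicate number showed no tendency to deviate together (correlations of -0.058 to 0.047 in U87 and -0.037 to 0.048 in U251). With 2 or 3 libraries per group, this cannot exclude that such samples shared a culture. The methods of the study state that cultures were divided at D14 between continued exposure and washout. With the replicate block, GBP5 at D14 of U87 had a log2 fold change of 1.16 and an adjusted p of 0.0523 in limma, and the calls over all genes there went from 481 to 369.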
